A study of Homo sapiens with 24 samples.

Results

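The 200 transcripts described here gave the most ribosome footprints per RNA among the moderately abundant transcripts of parental MDA-MB-231, an established line of human breast cancer cells. They were chosen from the 3648 of 11252 listed transcripts whose mean parental RNA value lay from 200 to below 1000. Efficiency was taken as log2(mean footprint value + 1) minus log2(mean RNA value + 1) over the 3 parental replicates, and the 200 highest were kept. All 200 were also listed in the table of the knockdown experiment, which held 10767 transcripts, 3462 of them from the same parental RNA window. Since parental values chose the members, their high parental level is a description and no finding, and the libraries of the other 3 groups are the ones that bear on it.

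The study sequenced ribosome-protected footprints and RNA from 4 groups of cells, with 3 replicates of each assay in each group. Parental MDA-MB-231 cells, labelled poorly metastatic, were set against LM2 cells, labelled highly metastatic to the lungs, in order to compare translation efficiency between them. In a separate table, MDA-MB-231 cells labelled poorly metastatic and as HNRNPC knockdown (sgHNRNPC) were set against control cells (sgCTRL) with the same metastatic label. HNRNPC is an RNA-binding protein of the nucleus, known for its part in splicing. The labels say neither how the knockdown was made nor whether the lines are clones, nor whether replicates were separate cultures, so the spread behind the p-values is that between samples and could be technical. The tables list Ensembl transcript IDs without gene names and 0 of 11396 IDs matched a gene name used here, so HNRNPC, marker genes and pathways were not analysed here, and members are mostly given by their rank in parental efficiency.

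A ribosome shields the stretch of mRNA it is reading from nuclease, and the number of such footprints divided by the RNA level is the usual measure of how heavily an mRNA is translated. It depends mainly on how often ribosomes start on the mRNA, which leader structure and upstream reading frames can lower. Footprints come mostly from the coding part. If RNA reads were counted over the whole transcript, the ratio also depends on how much of it is coding, but the counting rule is not given. Neither value is given per length, so levels are compared here between transcripts only as the ratio of the assays.

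Library totals of the footprint values ran from 1023095 to 1134509 for LM2 and parental cells and from 669584 to 753066 for sgCTRL and sgHNRNPC cells. The totals of RNA values ran from 32454759 to 34184294 and from 23607900 to 26617054. The 200 members made up 1.27% to 1.32% of the footprint total but 0.261% to 0.281% of the RNA total in the 6 libraries per assay of the LM2 table, parental ones included. In the knockdown table they made up 1.17% to 1.30% of footprints and 0.277% to 0.304% of RNA. No columns were identical. Footprint depth in reads is unknown.

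In parental cells the median member had 15.1 footprint units per 100 RNA units, against 4.24 for the 3448 other transcripts of the window. Members ranged from 12.6 to 43.1 per 100, and the middle of the list, from its lower to its upper quartile, lay between 13.6 and 17.2. The list is therefore a narrow crowd with a few transcripts far above it. Footprint values of the members ran from 25.5 to 273, with a median of 64.3, against a median of 21.2 for the others. RNA values of the members had a median of 402, against 529, and members were denser where RNA was lower. They were 80 of 912 transcripts with RNA from 200 to 341, 53 of 912 up to 521, 45 of 912 up to 733, and 22 of 912 above that.

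**Figure D1:**
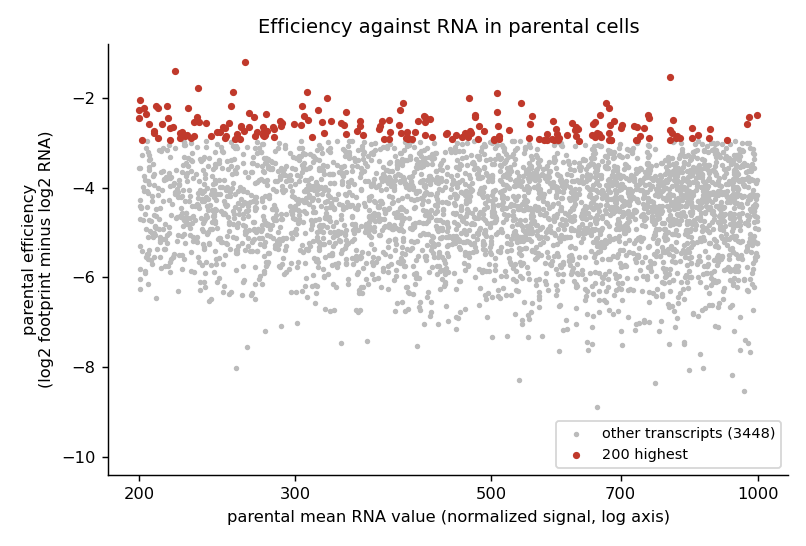
Parental efficiency (log2 footprint minus log2 RNA) against parental mean RNA (log axis) for the 3648 transcripts with RNA from 200 to below 1000, with the 200 highest in red. The red points thin out toward higher RNA, with 80 members in the lowest and 22 in the highest of 4 equal bands of the window.

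The transcript with the highest parental efficiency had RNA values of 246, 302 and 243 and footprint values of 125, 103 and 112 in parental replicates 1, 2 and 3, or 43.1 footprints per 100 RNA. Since the tables differ in scale, its level in each group is set against the median of the other transcripts of the window in that group. It was 10.2 times that median in parental cells, 8.60 times in LM2 cells, 14.2 times in sgCTRL cells and 11.7 times in sgHNRNPC cells, and ranked 1 or 2 of the window in each. The member ranked 2 lay at 8.90 times the median of the others in parental cells, 9.70 times in LM2 cells, 6.33 times in sgCTRL cells and 7.51 times in sgHNRNPC cells, where it ranked 2, 1, 9 and 4.

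At the lower edge of the list the differences were slight. Efficiency was -2.949, -2.949 and -2.952 for the 3 members just inside, ranked 198 to 200, and -2.955, -2.957 and -2.959 for the 3 transcripts just outside. In sgCTRL cells the 3 inside lay at percentiles 97.5, 89.5 and 95.7 of the window, and the 3 outside at 95.9, 90.3 and 96.3. Any of the 3 parental replicates alone would have placed 147 to 163 of the members among its own 200 highest. The SD of log2 efficiency over the parental replicates was 0.22 for the median member, against 0.32 for the others.

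The sgCTRL cells answer whether the members stay high, since none of their libraries took part in the choice. The members remained far above transcripts of like parental RNA. Their median was 11.2 footprints per 100 RNA, against 3.09 for the 3262 others, and the middle of the list lay between 9.35 and 13.4, against 1.71 to 5.21. In log2 efficiency the members led the others by 1.85, 1.83 and 1.73 in sgCTRL replicates 1, 2 and 3, or 1.80 ± 0.07 (SD, n = 3). The lead in the 3 parental replicates, on which the members had been chosen, was 1.79 to 1.80. The footprint and RNA scales of the tables differ, so members are followed between tables by rank or by distance from the other transcripts, and values from both tables are given side by side.

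The lead was of like size in the other groups. It was 1.74, 1.67 and 1.64 in LM2 replicates, or 1.68 ± 0.05, and 1.74, 1.72 and 1.83 in sgHNRNPC replicates, or 1.76 ± 0.06 (SD, n = 3). All 12 values lay between 1.64 and 1.85. The LM2 values lay below all parental ones, a gap that the choice on parental libraries favours. The lead did not rest on the low end of the RNA window, since in sgCTRL cells it was 1.78, 1.74, 1.82 and 1.77 in the 4 bands from lowest to highest RNA.

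**Figure D2:**
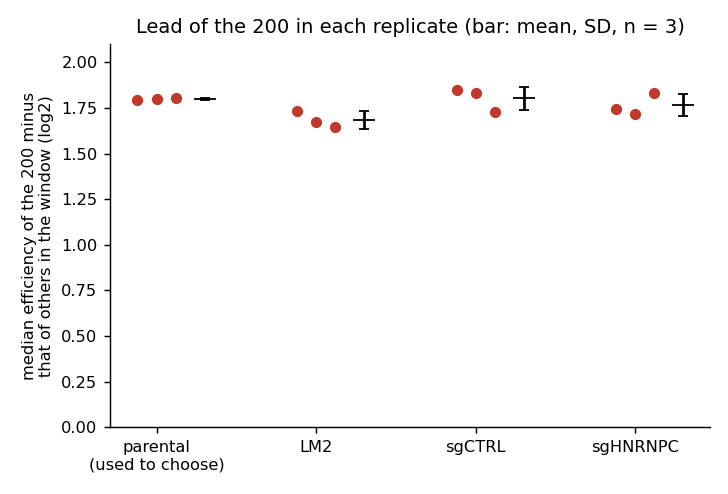
Median log2 efficiency of the 200 members minus that of the other transcripts of the window, 1 point per replicate, with the mean and SD (n = 3) beside the points of each group. All 12 points lie between 1.64 and 1.85, so the lead is present in each replicate, including the 9 outside the parental group.

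By rank, 137 of the 200 members were among the 200 highest of the 3462 transcripts in sgCTRL cells, where the 200 highest are 5.78% of the window. The median member lay at percentile 96.5, 195 members lay above the upper quartile of the others, and 1 lay below the median of the window. Retention followed parental rank. Of the first 50 members 45 were among the 200 highest in sgCTRL cells, then 39 of the next 50, 32 of the next and 21 of the last 50. The 200 transcripts ranked next in parental cells, 201 to 400, supplied 46 more. The rule was also applied afresh to each group, with the range of 200 to below 1000 on its own RNA values. The list then shared 111 transcripts with the members in sgCTRL cells, 105 in sgHNRNPC cells and 130 in LM2 cells, of 200 each. Only 159, 148 and 172 members had RNA within that range there, so some members could not be listed whatever their efficiency. In all 4 groups 66 transcripts made the list, a count that the RNA range limits too.

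Across the 3462 transcripts, parental and sgCTRL efficiency had a Pearson r of 0.87, and parental and LM2 efficiency, which share a table, one of 0.94. Within the 200 members, whose range the choice cut short, r was 0.63 and 0.78. These are correlations across transcripts that share libraries and depth, given as descriptions.

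**Figure D3:**
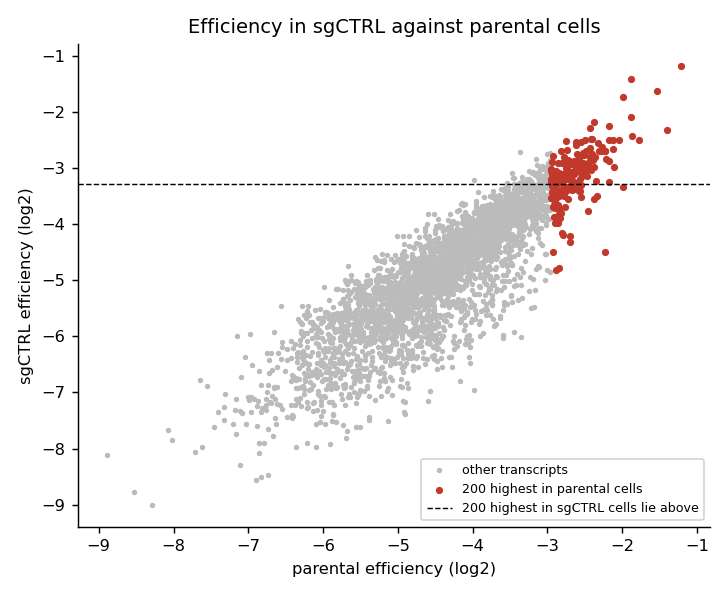
Efficiency in sgCTRL cells against parental cells (both log2) for the 3462 transcripts of the window listed in both tables, members in red, with a dashed line at the lowest of the 200 highest in sgCTRL cells. Of the red points 137 lie on or above the line, and the few far below it include the member ranked 19.

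Not all members stayed high. Of the 63 that left the 200 highest in sgCTRL cells, 38 were out in sgHNRNPC cells too, and 25 were not. A further 26 members were out in sgHNRNPC cells but not in sgCTRL cells. In LM2 cells 51 members were out, 34 of them among the 63. Beyond rank 400 of the window lay 21 members in sgCTRL cells, 29 in sgHNRNPC cells and 9 in LM2 cells. Of the 21, 16 were beyond rank 400 in sgHNRNPC cells as well, while 17 were within it in LM2 cells. The 21, picked for low sgCTRL ratios, had a median parental footprint value of 49.2, against 67.1 for the other 179 members, and a median parental RNA value of 358, against 403. In sgCTRL cells their median footprint value was 11.2, against 40.0 for the other 179. Their median sgCTRL RNA value was also lower, at 211 against 358. RNA there was below 200 for 10 of the 21 and for 30 of the 179.

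The clearest case, singled out after its values were seen, was the member ranked 19. Its RNA values were 689.8, 652 and 693 in parental cells and 579.6, 565 and 606 in sgCTRL cells, while its footprint values were 130.2, 140.2 and 159 in parental cells and 19.7, 25.2 and 29.6 in sgCTRL cells. Its footprints per RNA were 4.98 times the median of the others in parental cells and 4.25 times in LM2 cells, against 1.38 times in sgCTRL cells and 1.76 times in sgHNRNPC cells. It ranked 19 and 37 of the window in the LM2 table, and lay at percentiles 60.1 and 73.7 in the other. No test was made between the tables. The lowest member in sgCTRL cells, ranked 160 in parental cells, lay at 3.13 times the median of the others in parental cells and 0.880 times in sgCTRL cells, with sgCTRL footprint values of only 2.60, 4.75 and 1.96.

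More members passed the test in RNA than in efficiency in the knockdown, and the efficiency test is the less sensitive. Of the 200 members 194 passed the minimum mean value of 10 in both assays of the knockdown table and were tested. The remaining 6 had mean footprint values of 4.67 to 9.33. Efficiency was called for 2 of the 194 members, 1 higher and 1 lower (limma, adjusted p under 0.05 over all 8283 transcripts tested), where 5.46% of all tested transcripts were called, 3.72% higher and 1.74% lower. Of the 2058 others in the window that were tested, 2.14% were called, and of the 1311 among them with parental footprints in the members' range, 1.45%. At an unadjusted p under 0.05 there were 18 members, 9.28%, against 11.4% of the others in the window and 20.9% of all. Sensitivity differed, with a median standard error of 0.25 for members, 0.27 for the others in the window and 0.18 for all tested transcripts.

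The typical member moved about as far as like transcripts did in the values as deposited. The median change was 0.09 on the log2 scale for members, 0.10 for others in the window, 0.08 for others of like footprint level and 0.09 for all tested transcripts. Against others in the same band of RNA, the median member differed by -0.010. After TMM scaling, a rescaling by trimmed mean ratios, the median was 0.02 for members and 0.02 for the others. With quantile normalization, which gives the libraries of an assay one distribution, it was 0.11 for members and 0.03 for the others, and without sgHNRNPC replicate 3 it was 0.05 and 0.12. Whether members lay above or below the others thus changed with the setting. Changes of members spread with an SD of 0.33, against 0.37 for others in the window. For 144 of the 194 members the 95% interval of the change excluded a 2-fold change either way. So it did for 1444 of the 2058 others in the window and 6965 of all 8283 tested transcripts. For the other 50 members a change of that size is not excluded.

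ENST00000301012, ranked 109 in parental cells, was the member whose efficiency fell. Its RNA values were 391, 370.2 and 464 in sgCTRL cells and 343, 299 and 309 in sgHNRNPC cells, and its footprint values were 54.7, 37.8 and 49.8 against 13.8, 15.2 and 14.6. Every sgHNRNPC replicate was lower in both assays, and far lower in footprints. Efficiency fell by 1.26 on the log2 scale (SE 0.25, limma adjusted p = 0.00731), from 11.6 to 4.59 footprints per 100 RNA, so that it went from rank 107 to rank 1322 of the window. In LM2 cells its RNA was higher than in parental cells by 0.49 (adjusted p = 0.000345), while the footprint change of 0.21 and the efficiency change of -0.28 did not pass (adjusted p = 0.313 and 0.589).

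ENST00000617569, ranked 3 in parental cells and the member with the most parental footprints, was the one whose efficiency rose. Its RNA values were 925, 786 and 698 in sgCTRL cells and 269, 312 and 338 in sgHNRNPC cells, and its footprint values were 267, 253 and 256 against 134, 158 and 174. Both fell without overlap between the groups, as RNA fell by 1.38 and footprints fell by 0.74 on the log2 scale (adjusted p = 7.54e-11 and 1.70e-06). Footprints per 100 RNA went from 32.2 to 50.7, the highest of the window in sgHNRNPC cells. The efficiency rise was 0.64 (SE 0.17, limma adjusted p = 0.0419). It lay close to the threshold and was past it in 5 of 16 alternatives, with an adjusted p of 0.0187 to 0.164, and it was not called without any 1 of the 3 sgCTRL replicates or without sgHNRNPC replicate 2 or 3.

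RNA rose for 51 members and fell for 60 in sgHNRNPC cells (limma), where 73.5% of all tested transcripts were called, 28.0% higher and 45.4% lower. The called members were 57.2% of the 194, fewer than in the whole table, with 26.3% rising and 30.9% falling, against 31.0% and 34.4% of the others in the window, so falls outnumbered rises by less here than in the whole table. The balance of the members turned with the scaling. The median RNA change of all tested transcripts was -0.10 as deposited, and with it set to 0 there were 68 rises and 48 falls among members, 38.3% and 27.7% among the others in the window, and 36.3% and 36.9% in the whole table. TMM scaling gave 66 rises and 50 falls among members, 36.9% and 28.9% among the others, and 34.6% and 38.8% in the whole table. Quantile normalization gave 55 and 59 among members, 34.5% and 31.6% among the others, and 37.0% and 36.4% in the whole table. Footprints rose for 42 members and fell for 42, or 21.6% each, where 36.2% of all tested transcripts were called, 15.5% higher and 20.7% lower. Among others in the window 15.6% rose and 11.8% fell, with less precise footprints, at a median standard error of 0.26 against 0.19 for members. With the median change of all set to 0, footprints rose for 47 members and fell for 38.

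Footprints followed RNA in the members. Among the 51 members with an RNA rise, 30 had a footprint rise and 0 a footprint fall. Among the 60 with an RNA fall, 38 had a footprint fall and 0 a rise. These are 58.8% and 63.3%, against 43.7% and 31.3% of the others in the window, whose footprints were measured less precisely. In 12 of the 194 members footprints rose and in 4 they fell without an RNA call, against 39 and 21 of the 2058 others in the window. All 27 members with an RNA change beyond 2-fold, 7 rises and 20 falls, had a footprint change of the same sign, as did all 166 such others in the window. Across the 194 members the slope of footprint on RNA change was 0.86, with a Pearson r of 0.86, against a slope of 0.87 and an r of 0.81 for the others. Error in RNA lowers such a slope.

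**Figure D4:**
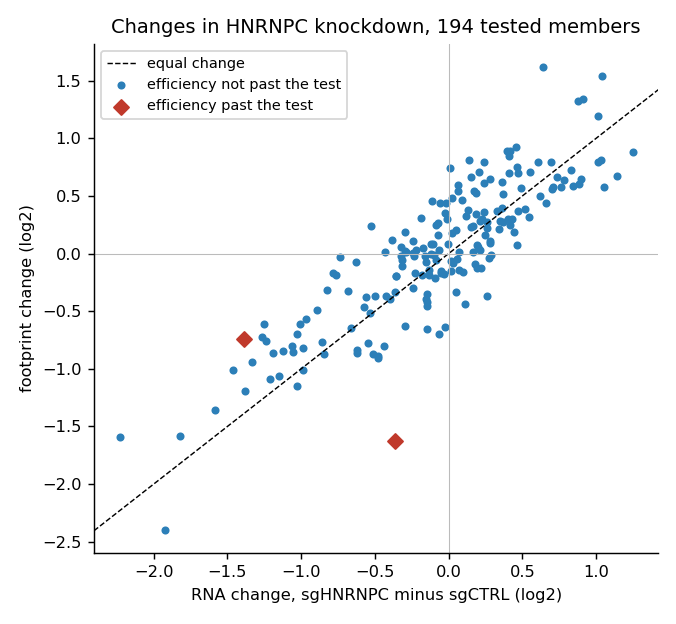
Footprint change against RNA change (log2, knockdown minus sgCTRL) for the 194 tested members, with a dashed line of equal change and diamonds for the 2 members whose efficiency passed the test. Most points lie along the line from an RNA change of -2.23 to one of 1.25, and the diamond at a footprint change of -1.62 lies well below it.

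The extreme RNA changes, given without an ID and picked after their values were seen, show footprints moving with RNA. The largest RNA fall was in the member ranked 70, with RNA values of 694, 631 and 603 in sgCTRL cells and 151, 134 and 124 in sgHNRNPC cells. Its footprint values were 69.6, 50.4 and 73.5 against 20.1, 21.4 and 20.0. RNA fell by 2.23 and footprints fell by 1.59 on the log2 scale (adjusted p = 5.92e-14 and 1.13e-07), and the efficiency change of 0.64 did not pass (adjusted p = 0.135). The largest RNA rise was in the member ranked 8, from 182, 197 and 124 to 349, 429.9 and 402, with footprint values of 52.2, 51.1 and 45.3 against 75.8, 109.6 and 92.8. The groups did not overlap in either assay of these members. RNA rose by 1.25 and footprints by 0.88 (adjusted p = 1.29e-07 and 1.57e-05), with an efficiency change of -0.37 that did not pass (adjusted p = 0.455).

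Size alone did not decide a call. The largest efficiency rise, 0.98 in the member ranked 101, did not pass (SE 0.61, limma adjusted p = 0.385). Its footprint values were 2.19, 8.09 and 19.7 in sgCTRL cells and 20.8, 29.5 and 25.0 in sgHNRNPC cells, a wide spread among the sgCTRL replicates. Its RNA values were 232, 242 and 183 against 373, 367 and 286. Both assays were higher in each sgHNRNPC replicate, RNA by 0.64 and footprints by 1.62 (adjusted p = 0.000349 and 0.00264), the largest footprint rise of the members.

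In LM2 cells the members were again high. Their median was 14.9 footprints per 100 RNA, against 15.1 in parental cells and against 4.46 for the others in LM2 cells. Of the 200 members 149 were among the 200 highest of the window and 191 among the 400 highest, and the lowest member lay at percentile 76.5. The LM2 libraries took no part in the choice, but the difference between LM2 and parental cells holds the parental values that did. A transcript whose parental ratio was high by error enters the list more readily and then appears to fall. All differences from parental cells are therefore given as descriptions.

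All 200 members and 78.9% of the others in the window, 2722 transcripts, passed the minimum mean in the LM2 table and were tested. Shares of calls among the others rest on these 2722. The median efficiency of members changed by -0.04 on the log2 scale in LM2 cells, against 0.08 for these others. It was 0.05 for others of like parental footprint level and 0.04 for all 9342 tested transcripts. The changes that follow were taken from replicate means over the whole window, and are not fitted changes of tested transcripts. By that measure the members changed by -0.046, against 0.083 for the others. As a description, members were chosen again on 2 parental replicates, and the LM2 mean was compared with the parental replicate left out. The median change then was 0.013, 0.027 and 0.033 for left-out replicates 1, 2 and 3, against 0.083, 0.059 and 0.085 for the others. Compared with the same 2 replicates that chose them, these lists changed by -0.063, -0.074 and -0.062. In the left-out parental replicate itself, the median transcript of such a list was lower than in the 2 that chose it by 0.11, 0.10 and 0.11. In median change, these lists differed from the others by -0.146, -0.170 and -0.136 against the same 2 replicates. Against the replicate left out the differences were -0.070, -0.032 and -0.052. For the members chosen on all 3 replicates the difference was -0.129. Chosen on the LM2 libraries instead, 200 transcripts, 130 of them members, had a median change of 0.073 against 0.070 for the others.

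**Figure D5:**
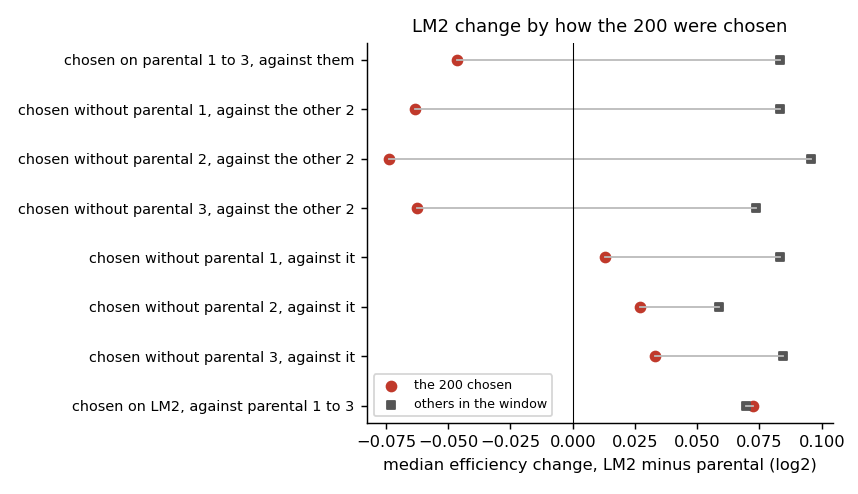
Median efficiency change (log2, LM2 minus parental) of the 200 chosen transcripts (circles) and of the others in the window (squares), by the libraries that chose them and the parental libraries they were compared with. The circles are below 0 where the same parental libraries chose and were compared. They are above 0, at 0.013 to 0.033, where the compared replicate was left out of the choice. The squares still lie above the circles there, at 0.059 to 0.085.

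Efficiency was called in LM2 cells for 1 member, which fell, and 0 rose (limma), where 1.63% of all tested transcripts were called, 0.471% higher and 1.16% lower. At an unadjusted p under 0.05 there were 7 members, 3.5%, with 1 higher and 6 lower. Among the others in the window 7.27% were under it, 143 higher and 55 lower, and among all tested transcripts 13.8%, 719 higher and 569 lower. The choice on parental libraries favours lower calls among members. The member that fell was ENST00000394485, ranked 32. Its RNA values were 631, 723 and 638 in parental cells and 1385, 1431 and 1636 in LM2 cells, and its footprint values were 122, 127 and 130.1 against 177, 116 and 125. RNA was higher in each LM2 replicate, while footprints overlapped between the groups. Footprints per 100 RNA went from 19.1 to 9.40. The efficiency call was lost without LM2 replicate 2 or 3 (limma adjusted p = 0.0548 and 0.0850) and without a variance trend (limma adjusted p = 0.0579). It was also lost with RNA and footprints of the same replicate number paired (limma adjusted p = 0.191). The labels do not say whether such samples share a lysate. In the other table the same transcript had RNA values of 954, 817 and 1002 in sgCTRL cells and 441, 334 and 394 in sgHNRNPC cells, with 8.44 and 13.1 footprints per 100 RNA. Its footprint values there were 84.6, 85.3 and 64.1 against 40.5, 54.1 and 58.1. RNA and footprints both fell in sgHNRNPC cells, as RNA fell by 1.25 and footprints fell by 0.61 (limma, adjusted p = 1.40e-10 and 0.00250), and the efficiency change of 0.64 did not pass (adjusted p = 0.118). In each table its ratio was lower in the group where its RNA was higher, but RNA is the divisor of this ratio and the relation was not tested.

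RNA rose for 33 and fell for 40 of the 200 members in LM2 cells, where 53.7% of all tested transcripts were called, 22.9% higher and 30.8% lower. Footprints rose for 13 and fell for 28, where 23.8% of all were called, 9.25% higher and 14.5% lower. Among the others in the window the footprints of 10.7% rose and those of 6.17% fell, and among those of like parental footprint level 9.82% and 8.84%. The choice on parental libraries favours footprint falls among members. The 13 rises were 8 without LM2 replicate 1 or 3. Among the 33 members with an RNA rise, 12 had a footprint rise and 0 a fall, and among the 40 with an RNA fall, 23 had a footprint fall and 0 a rise. These are 36.4% and 57.5%, against 35.3% and 26.4% of the others in the window. Footprints of the others were less precise, at a median standard error of 0.23 against 0.15 for members. The largest fall, picked after its values were seen, was in the member ranked 43. Its RNA values were 204, 224 and 173 in parental cells and 12.5, 29.9 and 16.7 in LM2 cells, with footprint values of 31.6, 33.0 and 42.6 against 0, 0.81 and 2.36. Both assays were far lower in each LM2 replicate, and so few footprints were left that its ratio in LM2 cells is poorly known. The largest rise was in the member ranked 146, with RNA values of 199, 262 and 262 in parental cells and 544, 526 and 601 in LM2 cells. Its footprint values were 27.7, 43.4 and 26.9 against 63.9, 64.4 and 65.2, so both assays rose without overlap.

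The experiments share no library, and 194 members were tested in both. RNA was called in both for 37 members, of which 4 rose in both, 15 fell in both and 18 moved in opposite directions. The 37 are 19.1% of the 194, against 29.8% of the 2008 others in the window and 41.4% of the 8171 transcripts tested in both. By direction, 2.06% of members rose in both, 7.73% fell in both and 9.28% moved in opposite directions. Of all 8171 these were 5.31%, 15.5% and 20.6%, so shared falls outnumbered shared rises in the whole table too. Footprints were called in both for 17, of which 1 rose in both, 8 fell in both and 8 moved in opposite directions. The 17 are 8.76% of the members, against 5.48% of the others and 10.7% of all. By direction they are 0.515%, 4.12% and 4.12% of the members, against 1.25%, 4.85% and 4.59% of all. Efficiency was called in both for 0 members and in neither for 191, and in both for 0.294% of all. Across members, which are not independent replicates, the changes in the experiments had a Pearson r of 0.05 for RNA, -0.0080 for footprints and -0.09 for efficiency. Across all transcripts tested in both, r was 0.04, 0.0085 and 0.04.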

How the data were processed

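The authors deposited a normalized footprint and RNA signal per transcript, in 1 table per experiment with 12 libraries each, per the file headers; for the scaling, annotation and counting rule, none of these sources says more (not given in the sources used here). The submitters' processing notes list Bowtie2 2.3.5, SAMtools, cutadapt 2.3, UMI-tools and the build hg38, with no role or order. Where genes overlap or nearly match in sequence, the split of reads between transcripts is uncertain. Columns headed only with the name of the line were taken as parental replicates by their number.

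The members and lists were chosen with earlier results of these data known. Values were transformed as log2(value + 1), which understates changes of low values. Transcripts with a mean of at least 10 in both assays of a table entered a limma fit (version 3.58.1, R 4.3.3, variance trend, two-sided, Benjamini-Hochberg over all transcripts tested). RNA and footprints were tested on 6 libraries each, and efficiency as the interaction of assay and group over 12. Levels in text are ratios of replicate means. Named transcripts were, by rule, the members past the efficiency threshold whose groups do not overlap, at most 2 each way per experiment. No gene name matched, so the planned gene lists and markers were not analysed here.

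On simulated data the fits recovered 36.9% of efficiency changes of 0.5 (log2) and 93.8% of such RNA changes in the knockdown table (8234 transcripts), and 42.4% and 90.8% in the LM2 table (9298 transcripts). Of the efficiency calls 5.67% and 6.49% were false. Changes were placed in transcripts drawn from the whole table. Members had larger median standard errors of efficiency, 0.25 against 0.18 in the knockdown and 0.21 against 0.17 in LM2 cells, so these rates are not those of members. Alternatives were pseudocounts, filters, scalings, blocks, list sizes and left-out replicates.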

Additional observations from a re-analysis of the deposited data

How the results depend on the processing

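The efficiency call that rose among members in the knockdown was fragile. Its count of 1 was 2 with a pseudocount of 5 and with the 400 highest transcripts in place of 200. It was 0 without a minimum mean, after TMM scaling, with a replicate block, without a variance trend and with the median change set to 0. Pairing footprints and RNA of the same replicate number also gave 0. The count ranged from 0 to 2 without a replicate. ENST00000301012, the call that fell, was past the threshold in all 15 alternatives that tested it, with an adjusted p of 0.00484 to 0.0432. The count of 1 was 0 with a minimum mean of 50, which left 66 members and not this transcript, and with the 100 highest, which leave it out. It was 1 without each replicate. The LM2 count of 1 was 0 without a variance trend and with same-numbered footprints and RNA paired. It was 0 to 1 without a replicate, lost without LM2 replicate 2 or 3. The count higher in LM2 cells was 0 in all 18 alternatives.

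In the knockdown, RNA rises and falls were 19 and 21 with a minimum mean of 50, 20 and 36 for the 100 highest, and 95 and 128 for the 400 highest. Footprint rises and falls were 19 and 15, 18 and 25, and 68 and 76. These lists hold other numbers of transcripts. Without a replicate they ranged from 42 to 51 and 52 to 56 for RNA and from 32 to 40 and 32 to 38 for footprints. Scaling turned the balance of RNA rises and falls from 51 and 60 to 66 and 50 (TMM) and 68 and 48 (median change set to 0). The balance of the others in the window turned too, to 36.9% and 28.9% (TMM) and 38.3% and 27.7% (median change set to 0). In LM2 cells, with alternatives added after the data were seen, RNA rises and falls were 17 and 20 for the 100 highest and 68 and 84 for the 400 highest, with 24 falls at a minimum mean of 50. Footprint rises and falls were 7 and 14, and 30 and 52, with 17 falls at that minimum and 5 rises without a variance trend. Without a replicate they were 27 to 33 and 30 to 37 for RNA and 8 to 12 and 21 to 29 for footprints.

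The median change in the knockdown was 0.016 after TMM scaling, 0.112 with quantile normalization (others 0.034) and 0.053 to 0.115 without a replicate, the lowest without sgHNRNPC replicate 3. The median LM2 change of -0.040 was -0.058 to -0.030 without a replicate. Taken from replicate means, it was -0.046 for the members. By that measure it was 0.013, 0.027 and 0.033 where the compared parental replicate was left out of the choice. For a list chosen on LM2 libraries it was 0.073. The median percentile in sgCTRL cells was 98.1 for the 100 highest, 93.7 for the 400 highest, 97.0 with the window set by sgCTRL RNA (chosen after the data were seen), and 96.3 to 96.5 without a replicate. Of the 100 highest, 84 were among the 200 highest in sgCTRL cells, and 127 to 139 of 200 without a replicate.

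Same-numbered samples of the groups compared did not deviate together (correlations of -0.20 to 0.03), so the replicate block rests on a number only. The block left the other counts of efficiency, RNA and footprint calls in both experiments within 1.5 times. Same-numbered RNA and footprints of a group correlated at 0.011 to 0.126 (sgCTRL), 0.015 to 0.068 (sgHNRNPC), 0.015 to 0.113 (LM2) and -0.006 to 0.060 (parental). The main efficiency fit did not pair them. Low footprint signal limits members at the foot of the knockdown table. A call not made does not show an unchanged efficiency.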
